A study of Mus musculus with 36 samples.

Results

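The livers compared here came from mice whose liver X receptor alpha (LXRalpha) had at residue 441 either the normal tryptophan or a phenylalanine (W441F). They make up 8 of the 36 libraries of the series and were chosen by their labels. The mutant group was 4 F/F mice, homozygous for the change, and the control group was 4 W/W mice, homozygous for the normal residue. All 8 were males of 11 to 12 weeks that ate a diet high in fat and cholesterol, made to promote MASH (metabolic dysfunction-associated steatohepatitis, a fatty liver with inflammation and scarring), for 4 weeks. All received vehicle by daily gavage during the last 2 of those weeks, so no LXR agonist was given. Other groups entered for contrast only, each of 4 male mice of the same age range: F/F and W/W on chow, from an independent cohort, F/F and W/W on the MASH diet with the LXR agonist T0901317 at 10 mg/kg, and heterozygous W/F mice on the MASH diet with vehicle. The mutation was made with CRISPR and the labels name no tissue-specific driver. Whether the mutants descend from 1 founder is not given in the sources used here.

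LXRalpha is a nuclear receptor that binds oxidised forms of cholesterol and acts as a partner of the retinoid X receptors. When cholesterol rises in a hepatocyte it turns on genes that export sterol to bile and lipoproteins and genes that make fatty acids, and in macrophages it acts on cholesterol efflux and on the genes that mark resident Kupffer cells. Residue 441 lies near the end of the receptor, in its ligand-binding domain. The design text pairs LXRalpha with the symbol Nr1h2, but in the mouse annotation LXRalpha is Nr1h3 (ENSMUSG00000002108) and Nr1h2 (ENSMUSG00000060601) is its close relative LXRbeta. In the reference, the Nr1h3 protein has 445 codons and codon 441 is TGG, the codon for tryptophan. It lies in exon 10 on the minus strand at chr2:91184351-91184353 (GRCm38), inside the gene at chr2:91184061-91202834. The 30 bases of coding sequence around it show which residue the mice differ in, with codon 441 in capitals:
Nr1h3 codon 441, reference: ctgctgtctgagatcTGGgatgtccacgag

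PolyA RNA was measured as TPM, a transcript level corrected for gene length and scaled to the same total in every library. Depth, estimated from the steps between low TPM values, was 23.2 M to 26.5 M reads in F/F and 21.3 M to 24.6 M reads in W/W vehicle mice, so the groups overlapped. Log2 values of 2 mice correlated across genes at 0.977 to 0.983 within either group and at 0.870 to 0.891 between groups, where genes are not independent replicates. The median coefficient of variation among replicates was 8.63% in F/F and 10.8% in W/W, over 7692 genes. The labels do not say more of the animals than that they are separate mice. Hepatocyte markers led in every library, with the summed TPM of Alb, Ttr, Hnf4a and Asgr1 at 22633 to 26143 in F/F and 46522 to 68645 in W/W. Some libraries held transcripts that mark pancreas or muscle, and their source was not tested. W/W replicate 1 had 29.0 TPM of the pancreatic lipase Pnlip against at most 0.136 TPM in the other vehicle mice compared, and F/F replicate 3 had 39.6 TPM of the muscle actin Acta1 against at most 0.537 TPM. Of the other muscle markers, Ckm reached 9.47 TPM and Myh4 0.0758 TPM in F/F. W/W replicate 4 was highest of its group in many immune genes, and W/W replicate 3 lowest in several genes of fatty acid synthesis. Each is named below where it touches a result, and each library was left out in turn.

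Across the liver transcriptome the genotypes differed broadly. Of 16638 genes tested, 12724 (76.5%) had an adjusted p under 0.05 in a limma fit of log2(TPM + 1), 11538 of them higher and 1186 lower in F/F. The median gene was 0.70 higher on the log2 scale. TPM sums to the same total in each library, and the 100 most abundant genes held 41.6% to 44.5% of it in F/F and 54.3% to 59.1% in W/W. Their part in the shift was not tested. After each library was rescaled so that the median gene was level (median 0.03), 9836 genes were called, 5162 higher and 4674 lower. A gene is therefore called higher or lower below only where it passed in the same direction in both scalings: 5162 genes were higher (31.0% of those tested) and 1186 were lower (7.13%), of which 2186 and 490 differed by at least 2-fold. Another 1643 genes passed in opposite directions. Leaving out each of the 8 mice in turn gave 4890 to 5002 higher and 1095 to 1197 lower genes. Fold changes are given on the log2(TPM + 1) scale as deposited, which understates the change of genes near 0 TPM, with the standard error (SE) and p-values adjusted by Benjamini-Hochberg over all genes tested. Percentages of 31.0 and 7.13 are the background against which the counts in each gene list are to be read, and the medians of 0.70 as deposited and 0.03 rescaled are the background for each list's median. The lists overlap and together hold 501 genes in 33 lists.

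**Figure D1:**
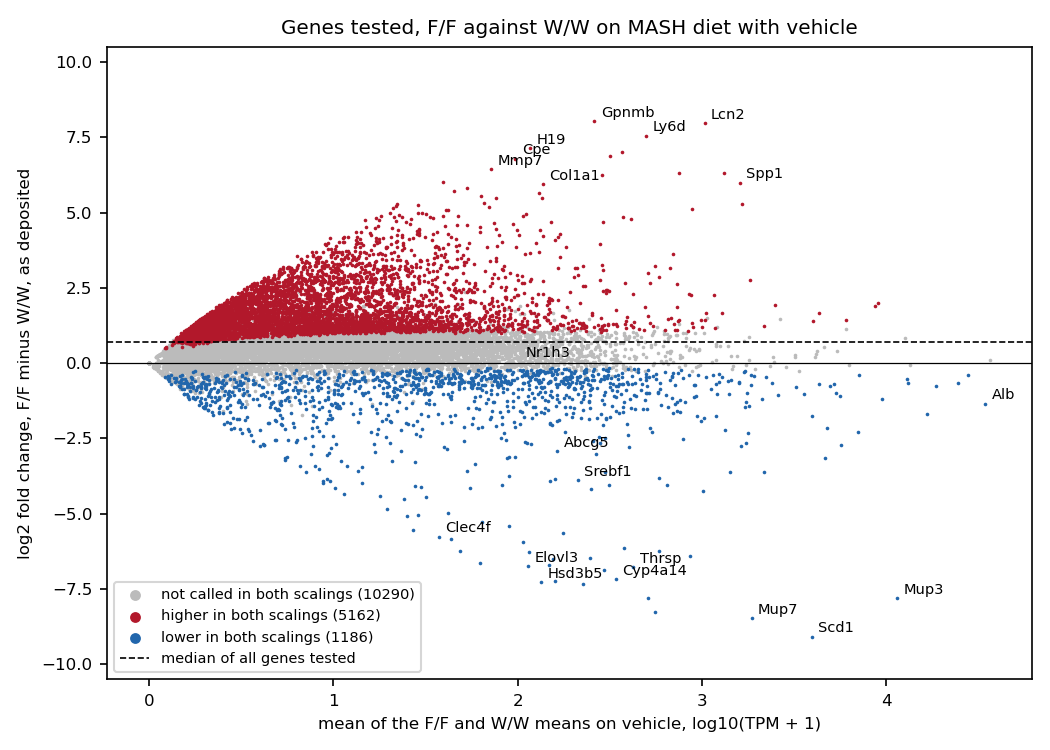
Fitted log2 fold change of F/F against W/W on the MASH diet with vehicle (vertical axis, as deposited) against mean level (horizontal axis, log10 of TPM + 1) for 16638 genes, each point 1 gene. The 5162 red genes were higher and the 1186 blue genes lower in both scalings, and Scd1 at -9.09 and Gpnmb at 8.03 stand at the far ends.

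The receptor's own transcript was not called in the same direction in both scalings. Nr1h3 stood at 124, 103, 95.8 and 91.4 TPM in the 4 F/F mice and 83.1, 105, 106 and 101 TPM in the 4 W/W mice. The ranges overlapped as deposited, with a log2 fold change of 0.06 ± 0.10 (SE, adjusted p = 0.594), and after rescaling the direction turned to -0.80 (adjusted p = 3.62e-08). Nr1h2, the LXRbeta gene, was at 46.5, 50.9, 45.3 and 45.9 TPM in F/F and 22.2, 23.4, 23.1 and 23.5 TPM in W/W. These values do not overlap as deposited, but rescaling left a difference of 0.16 (adjusted p = 0.07) and overlapping groups. Of 15 tested genes for LXRs, their partners and cofactors, 2 were higher and none lower in both scalings (median -0.13 rescaled). Rxra, which encodes a dimer partner, was 0.18 as deposited and -0.68 rescaled. The 2 higher genes were Tbl1xr1, part of the corepressor exchange machinery, at 1.12 ± 0.08 (SE, adjusted p = 6.16e-13), and the coactivator Ncoa3 at 1.07 ± 0.12 (SE, adjusted p = 5.09e-09).

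LXR target genes split into those that were lower and those that were higher in F/F. Of 19 tested, 10 were lower and 6 higher in both scalings, with a median of -0.64 as deposited and -1.49 rescaled. Most of the lower ones are genes of fatty acid synthesis and sterol export that LXRalpha drives in hepatocytes. Scd1, the stearoyl-CoA desaturase that makes monounsaturated fat (ENSMUSG00000037071), was at 11.2, 15, 13.7 and 12.6 TPM in F/F and 5889, 11171, 8114 and 6408 TPM in W/W. Every W/W mouse stood far above every F/F mouse, and the ratio of group means was 602 (-9.09 ± 0.30 SE on the log2 scale, adjusted p = 1.61e-20). Srebf1, the transcription factor that governs fatty acid synthesis, was at 22.5, 22.6, 23.3 and 26.6 TPM in F/F and 365, 441, 186 and 599 TPM in W/W. All 4 F/F mice were close together and far below the lowest control (-3.89 ± 0.22 SE, adjusted p = 1.78e-15). Fasn, the fatty acid synthase, was at 7.63, 8.64, 11.0 and 7.93 TPM in F/F and 150.4, 193, 31.2 and 302 TPM in W/W. Its W/W values spread widely, with replicate 3 lowest, yet did not reach down to F/F (-3.74 ± 0.41 SE, adjusted p = 2.1e-09).

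Abcg5 and Abcg8 encode the partners that form the transporter that moves sterols into bile, and lie on opposite strands of chromosome 17. Their annotated exons overlap, and the strand setting is not given, so reads there could be counted for either gene. The RefSeq promoter window of Abcg5 (GRCm38.p6, 250 bases before to 50 after the start) is chr17:84682962-84683261 on the minus strand. It overlaps in part an Abcg8 window at chr17:84682871-84683170 on the plus strand. Another Abcg8 window, at chr17:84676052-84676351, does not overlap it. The Abcg5 window is shown because part of it is shared with a promoter of Abcg8, and both genes were lower:
Abcg5 promoter, minus strand: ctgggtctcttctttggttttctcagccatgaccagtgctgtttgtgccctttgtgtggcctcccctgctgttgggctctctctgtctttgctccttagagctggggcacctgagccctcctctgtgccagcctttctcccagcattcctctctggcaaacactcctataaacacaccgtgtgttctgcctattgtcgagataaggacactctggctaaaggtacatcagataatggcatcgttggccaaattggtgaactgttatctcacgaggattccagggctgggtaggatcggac
Abcg5 was at 39.4, 37.4, 31.8 and 40.3 TPM in F/F and 292, 302, 233 and 332 TPM in W/W, a difference of -2.92 ± 0.23 (SE, adjusted p = 2.97e-12). Abcg8 was at 29.7, 28.0, 25.8 and 33.3 TPM in F/F and 170.4, 198, 139 and 246 TPM in W/W (-2.62 ± 0.27 SE, adjusted p = 6.51e-10). No F/F mouse reached any W/W mouse for either gene. Also lower were the carbohydrate-response factor Mlxipl (-1.66), the lipoprotein gene Apoe (-0.65) and Lpcat3 (-0.64), which puts polyunsaturated fat into phospholipids. Cyp7a1, the rate-limiting enzyme of bile acid synthesis, was at 21.03, 10.1, 11.3 and 15.6 TPM in F/F and 62.5, 90.1, 14.0 and 63.7 TPM in W/W. Here the groups overlapped as deposited, since W/W replicate 3 fell inside the F/F range (-1.70 ± 0.45 SE, adjusted p = 0.00107).

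The LXR targets that were higher in F/F are ones also expressed by macrophages and other non-hepatocytes. That trait does not set them apart, since Cd5l, a gene of Kupffer cells, was among the lower targets (-4.99). Abcg1, an exporter of cholesterol to lipoproteins, was at 32.5, 35.1, 33.2 and 41.0 TPM in F/F and 5.28, 7.44, 5.25 and 8.07 TPM in W/W, with no overlap (2.29 ± 0.24 SE, adjusted p = 4.89e-10). Arl4c, a small GTPase, differed most of the 6, at 16.9, 21.2, 15.5 and 19.3 TPM in F/F and 1.03, 1.33, 1.27 and 1.47 TPM in W/W (3.08 ± 0.24 SE, adjusted p = 2.25e-12). The others were the lipoprotein lipase Lpl (2.36), the receptor for dying cells Mertk (1.35), the phosphodiesterase Smpdl3a (1.37) and the ubiquitin ligase Mylip (1.32). In whole liver, fewer cells of a type and less RNA per cell cannot be told apart, and so for more of either. The 17 genes of lipid-associated macrophages summed to 10649 to 12043 TPM in F/F and 1179 to 1463 TPM in W/W, and their part in these 6 was not tested. The 3 remaining members passed in neither direction in both scalings. Abca1, the main cholesterol efflux pump, was at 34.1, 40.0, 33.0 and 41.7 TPM in F/F and 27.9, 30.8, 26.3 and 35.3 TPM in W/W, 0.30 as deposited (adjusted p = 0.0724) and -0.54 rescaled (adjusted p = 0.00264). Pltp was at -0.43 (adjusted p = 0.294), and Pnpla3 at -0.58 (adjusted p = 0.118).

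**Figure D2:**
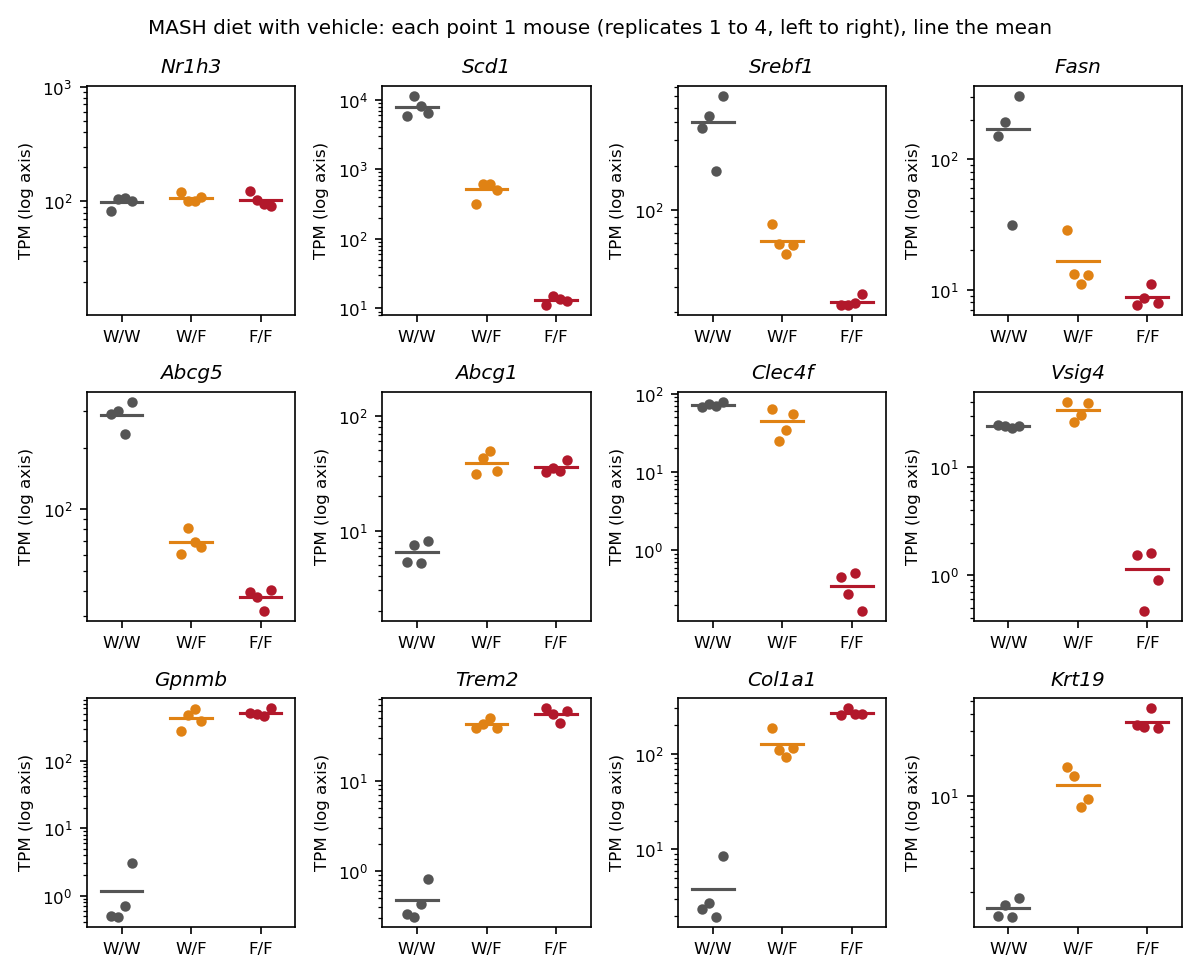
TPM of 12 genes (log axes) in each vehicle mouse of the W/W, W/F and F/F genotypes, with the mean as a line. Nr1h3 overlaps between genotypes, Scd1 steps down from W/W to W/F to F/F, Abcg1 and Gpnmb are high in both mutant genotypes, and Clec4f and Vsig4 are lowest in F/F.

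Fatty acid and triglyceride synthesis was lower as a group. Of 22 genes tested, 17 were lower and 1 higher (median -0.95 as deposited, -1.77 rescaled). Thrsp, a nuclear protein induced with lipogenesis, was at 5.71, 4.73, 3.96 and 3.21 TPM in F/F and 1464, 712, 105 and 1085 TPM in W/W. Elovl3, which lengthens very long saturated chains, was at 0.228, 1.39, 1.98 and 0.623 TPM in F/F and 107, 222, 359 and 216 TPM in W/W. W/W replicate 3 was lowest of its group for Thrsp and highest for Elovl3, and neither gene's groups overlapped (-6.79 ± 0.67 and -6.74 ± 0.56 SE, adjusted p = 1.84e-10 and 6.47e-12). Elovl6, which lengthens the product of Fasn, was -2.64 (adjusted p = 3.7e-10). The exception was Scd2, the desaturase of tissues other than liver, at 17.3, 25.3, 25.5 and 25.9 TPM in F/F and 2.23, 2.73, 2.27 and 3.37 TPM in W/W (2.74 ± 0.32 SE, adjusted p = 4.45e-09). Thus the 2 desaturase genes moved in opposite directions, and in F/F Scd2 was above Scd1 in each mouse. Dgat1, which completes triglycerides, was 0.58 as deposited and -0.25 rescaled.

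Sterol synthesis and uptake moved less. Of 24 genes 9 were lower and 1 was higher, and 14 did not pass in the same direction in both scalings (median -0.20 as deposited, -0.96 rescaled). Counted as deposited only, 9 were lower and 5 higher, and counted rescaled only, 19 were lower and 1 higher. Insig1, the sterol sensor that holds SREBPs in the endoplasmic reticulum, was at 24.7, 20.6, 25.4 and 35.5 TPM in F/F and 127, 200.2, 106 and 125 TPM in W/W. Tm7sf2, a sterol reductase, was at 9.60, 9.12, 10.0 and 8.58 TPM in F/F and 33.1, 50.4, 51.5 and 37.2 TPM in W/W. Both were lower without overlap (-2.33 ± 0.22 and -2.07 ± 0.16 SE, adjusted p = 8.28e-11 and 9.72e-13). Sqle, the squalene epoxidase that commits carbon to sterols, was the higher one, at 7.91, 7.54, 12.9 and 9.07 TPM in F/F and 1.90, 3.10, 2.09 and 2.48 TPM in W/W (1.59 ± 0.17 SE, adjusted p = 8.21e-10). Srebf2, which governs this pathway, was 0.88 as deposited and 0.05 rescaled (adjusted p = 0.709), and Hmgcs1 was 0.26 and -0.60.

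Fatty acid oxidation and the targets of PPARalpha, the receptor that senses fatty acids, were also mostly lower, with 11 lower and 3 higher of 21 tested (median -0.24 as deposited, -1.10 rescaled). Cyp4a14, a fatty acid omega-hydroxylase, was at 2.23, 2.26, 2.98 and 3.10 TPM in F/F and 271, 889, 1311 and 228 TPM in W/W. Its relative Cyp4a10, which shares 29.8% of its exon sequence with other genes, was at 9.92, 4.91, 7.41 and 16.4 TPM in F/F and 614, 767, 1162 and 449 TPM in W/W. In both the controls varied several-fold and still stood far above every F/F mouse (-7.16 ± 0.89 and -6.16 ± 0.67 SE, adjusted p = 2e-08 and 1.35e-09). Acot1 (-3.34), Ehhadh (-2.497) and Ppara itself (-0.91, adjusted p = 0.00685) were lower too. Higher were the fasting hormone Fgf21, at 25.9, 25.3, 29.98 and 28.9 TPM in F/F and 5.64, 7.13, 6.99 and 1.45 TPM in W/W (2.32 ± 0.39 SE, adjusted p = 3.14e-06), the pyruvate dehydrogenase kinase Pdk4 (2.17, adjusted p = 7.62e-05) and the coactivator Ppargc1a (1.34, adjusted p = 7.79e-07). Cpt1a, which admits fatty acids to mitochondria, was 0.33 as deposited and -0.54 rescaled. Of 14 lipid droplet genes 3 were higher and 4 lower. Among them Plin3 was higher by 2.15 ± 0.15 (SE, adjusted p = 2.74e-13) and Fitm1 was lower (-2.14 ± 0.32 SE, adjusted p = 4.42e-07). Plin2, the main droplet coat of a fatty liver, was 0.68 as deposited and -0.18 rescaled, with overlapping groups.

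Bile acid genes and apolipoproteins were lower in F/F. Of 21 genes of bile acid synthesis and transport, 16 were lower and 2 higher (median -1.61 rescaled). Slco1a1, an organic anion importer, was at 2.09, 4.41, 2.49 and 3.73 TPM in F/F and 139, 210.3, 145 and 202 TPM in W/W. Cyp8b1, which sets the share of cholic acid, was at 25.4, 12.8, 14.9 and 18.2 TPM in F/F and 346, 200.4, 284 and 291 TPM in W/W. Slc10a1, the main importer of bile acids from blood, was at 137, 88.5, 75.3 and 114 TPM in F/F and 649, 736, 666 and 759 TPM in W/W. None of the 3 had overlapping groups (-5.40 ± 0.40, -3.92 ± 0.31 and -2.78 ± 0.21 SE, all with adjusted p of 2.02e-12 or less). The 2 higher genes are linked to export of bile acids across the membrane facing blood, which was not measured. Slc51a, also on the list, was too low to be tested and is listed at 0 in all 8 mice compared. Slc51b was at 9.78, 24.0, 23.2 and 20.4 TPM in F/F and 0.582, 1.43, 0.852 and 0.554 TPM in W/W (3.41 ± 0.44 SE, adjusted p = 3.56e-08), and Abcc4 was higher by 1.95 ± 0.28 (SE, adjusted p = 3.39e-07). Of 16 genes for apolipoproteins and lipoprotein assembly, 10 were lower and none higher, among them Apoc1 (-2.16 ± 0.11 SE, adjusted p = 6.43e-16) and Apoa2 (-1.69 ± 0.14 SE, adjusted p = 3.98e-12).

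Genes of the mature hepatocyte were lower, most of all those of drug metabolism and those that are higher in males. All 12 male-biased genes tested were lower (median -5.67 as deposited, -6.36 rescaled). Mup3, a major urinary protein and the least shared in sequence of the Mup genes named here (13.3% of its exon sequence), was at 104, 116, 113 and 75.8 TPM in F/F and 24512, 19414, 21873 and 25614 TPM in W/W. Hsd3b5, a male-specific steroid reductase, was at 0.661, 0.743, 0.736 and 0.735 TPM in F/F and 213, 284, 257 and 311 TPM in W/W. The ratios of group means, W/W over F/F, were 224 and 370.2, with log2 differences of -7.80 ± 0.40 and -7.27 ± 0.90 (SE, adjusted p = 3.98e-16 and 1.73e-08). Mup7, Mup17, Mup15, Mup14, Mup11 and Mup19 lay between -8.46 and -6.64, but 77.8% to 100% of their sequence is shared with other genes, so that reads could be divided among them. Mup20, with 50.5% of its sequence shared, was lower by a smaller amount (-1.19 ± 0.36 SE, adjusted p = 0.00407). Of 8 female-biased genes tested, 3 were higher and none lower, among them Ntrk2 (2.55 ± 0.17 SE, adjusted p = 1.04e-13) and Fmo2 (2.60 ± 0.29 SE, adjusted p = 3.37e-09). In growth hormone signalling, which sets the male pattern in liver, 3 of 12 genes were higher and 3 lower. The higher ones were Igfbp1 (2.92), Socs3 (1.78) and the kinase gene Jak2 (1.08). Socs2 (1.40 as deposited, 0.64 rescaled) and Cish (0.34 and -0.45) did not pass in both scalings. The receptor Ghr was at 41.0, 38.6, 35.6 and 36.9 TPM in F/F and 111, 123, 114 and 135 TPM in W/W (-1.64 ± 0.14 SE, adjusted p = 1.24e-11) and its target Igf1 was lower by a smaller amount (-0.47, adjusted p = 0.000661). The count of 3 higher genes there fell to 1 without F/F replicate 2 or 4 or W/W replicate 1 or 4.

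Among 16 cytochrome P450 genes of drug metabolism, 14 were lower and none higher (median -3.07 rescaled). Cyp2c54, which shares 25.7% of its exon sequence with other genes, was at 7.91, 4.03, 4.06 and 8.19 TPM in F/F and 396, 290.3, 289 and 396 TPM in W/W. Cyp2e1, one of the most abundant P450s and a marker of hepatocytes near the central vein, was at 2599, 939, 1075 and 1781 TPM in F/F and 9694, 9343, 10627 and 9349.7 TPM in W/W. Both were lower without overlap (-5.65 ± 0.30 and -2.73 ± 0.25 SE, adjusted p = 8.38e-16 and 3.77e-11). The exceptions in level were Cyp3a11, 0.72 as deposited (adjusted p = 0.169) and -0.15 rescaled, and Cyp2a5, 0.41 and -0.46. Genes from both ends of the liver lobule were among those lower. Of 12 pericentral genes 5 were lower and 1 higher, with glutamine synthetase, Glul, lower (-1.40 ± 0.12 SE, adjusted p = 5.66e-12). Of 12 periportal genes 7 were lower and 2 higher, with Cyp2f2 at -3.83 ± 0.23 and the cadherin Cdh1, which bile duct cells also express, at 2.96 ± 0.23 (SE, adjusted p = 8.45e-15 and 1.96e-12). Of 14 genes of glucose metabolism 10 were lower and 2 higher.

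The wider hepatocyte list was lower by less. Of 21 genes 11 were lower and 2 higher (median -0.29 as deposited, -1.12 rescaled). Alb, albumin, was at 18000.1, 18785, 21731 and 18891 TPM in F/F and 39373, 55545, 58303 and 45796 TPM in W/W, with no overlap (-1.35 ± 0.19 SE, adjusted p = 2.23e-07). Ttr (-1.10), the urea cycle enzyme Cps1 (-1.64) and the asialoglycoprotein receptor Asgr1 (-0.36) were also lower. The higher members, the haem binder Hpx (1.90 ± 0.38 SE, adjusted p = 4.33e-05) and the iron carrier Trf (1.41 ± 0.14 SE, adjusted p = 1.1e-10), are secreted proteins that respond to inflammation or iron. Trf shares 59.4% of its sequence with other genes, and its exons overlap Gm20425 on the same strand. Markers of other cells rose in the same mice. The 3 cholangiocyte markers summed to 88.0 to 112 TPM in F/F and 3.61 to 4.76 TPM in W/W, and the 26 matrix genes to 2109.6 to 2514 TPM and 269.6 to 403 TPM, with none of either at 0 in a whole group. Their part in the lower hepatocyte values was not tested.

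**Figure D3:**
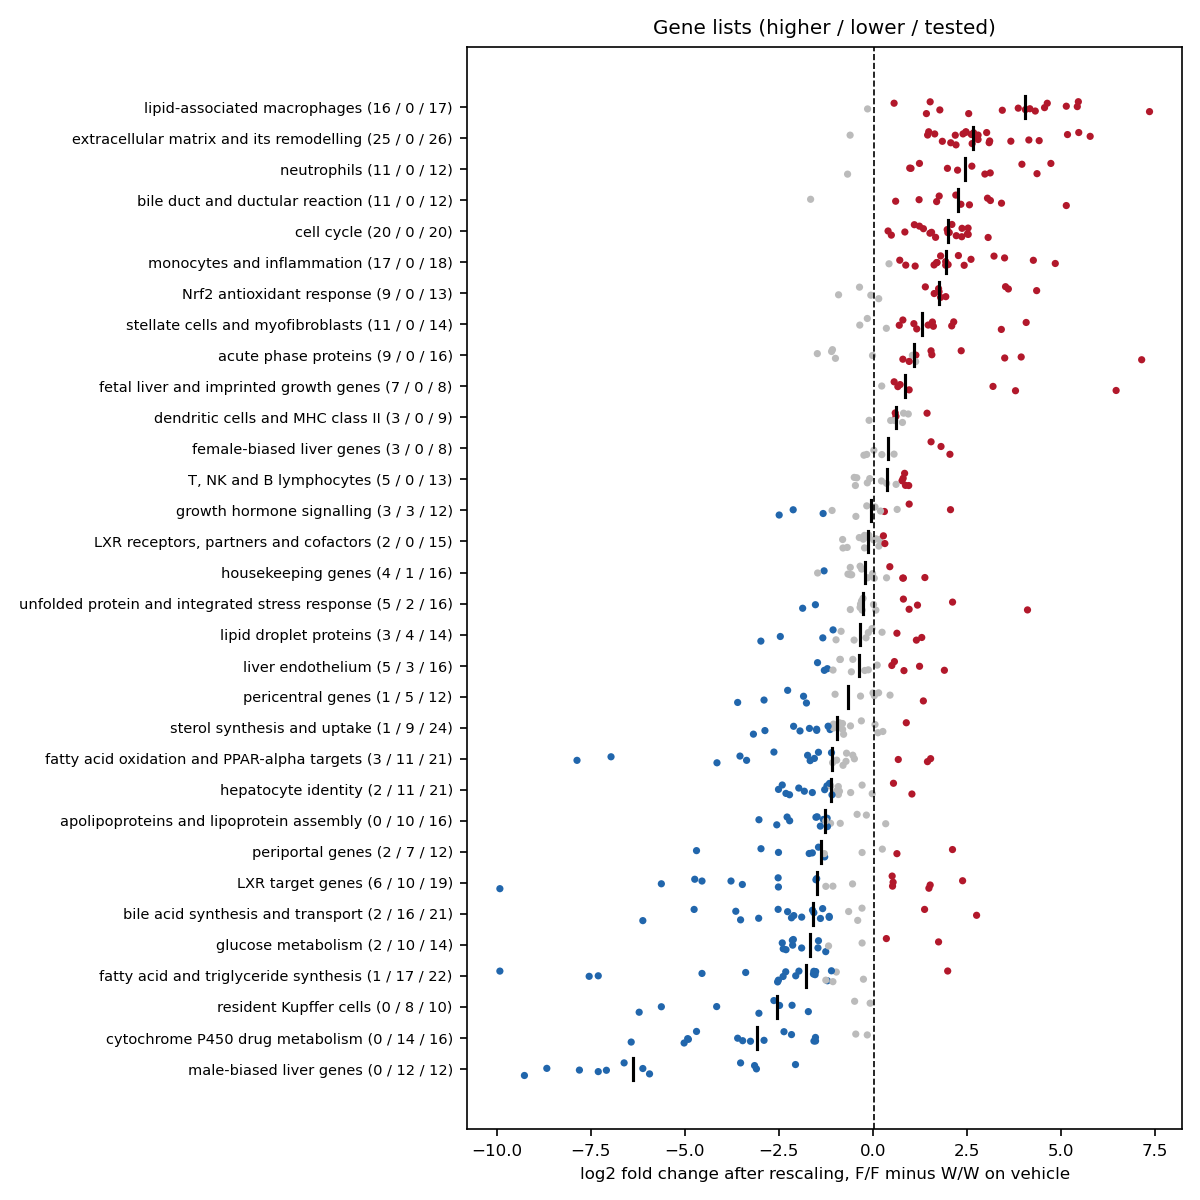
Log2 fold change after rescaling of each tested member of 32 gene lists, F/F against W/W on vehicle, ordered by the list median (black bar); the dashed line is the median of all genes. Red points were higher and blue points lower in both scalings, and the lists run from male-biased liver genes, all lower, to lipid-associated macrophages, 16 of 17 higher.

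Macrophage genes showed 2 opposite patterns. Genes of resident Kupffer cells, the macrophages that line the liver sinusoids from birth, were lower, with 8 of 10 lower and none higher (median -2.56 rescaled). Clec4f, a lectin found on mouse Kupffer cells, was at 0.460, 0.280, 0.508 and 0.168 TPM in F/F and 68.0, 73.4, 70.3 and 77.6 TPM in W/W. Vsig4, a complement receptor, was at 1.53, 0.465, 1.61 and 0.906 TPM in F/F and 24.5, 24.0, 23.3 and 23.9 TPM in W/W. All 4 F/F mice were near 0 for Clec4f while the 4 controls lay close together (-5.76 ± 0.27 SE, adjusted p = 8.95e-17), and Vsig4 was alike (-3.59 ± 0.31 SE, adjusted p = 1.21e-11). Timd4, a receptor for dying cells kept by long-lived Kupffer cells, was at 0, 0.0530, 0.210 and 0.143 TPM in F/F and 6.36, 5.26, 6.26 and 6.74 TPM in W/W, and the haemoglobin scavenger receptor Cd163 at 0, 0.127, 0.0418 and 0.0379 TPM and 3.72, 5.12, 4.11 and 4.35 TPM. The iron exporter Slc40a1, in contrast, was 0.35 as deposited and -0.49 rescaled. Cd5l, a secreted scavenger protein of Kupffer cells that is also on the LXR list, was at 1.12, 2.04, 1.34 and 1.83 TPM in F/F and 73.5, 76.2, 81.6 and 90.9 TPM in W/W (-4.99 ± 0.38 SE, adjusted p = 1.17e-12).

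Lipid-associated macrophages, which gather around fat-laden or dying hepatocytes, left the opposite trace. Of 17 of their genes 16 were higher (median 4.70 as deposited, 4.05 rescaled). Gpnmb, a lysosomal glycoprotein (ENSMUSG00000029816, chr6:49036546-49070929, GRCm38), was at 515, 497, 461 and 601 TPM in F/F and 0.491, 0.482, 0.711 and 3.05 TPM in W/W. Trem2, the lipid receptor that names this state, was at 63.5, 55.3, 43.6 and 59.2 TPM in F/F and 0.334, 0.307, 0.428 and 0.814 TPM in W/W. W/W replicate 4 was the highest control for both, and still far under every F/F mouse (8.03 ± 0.53 and 5.26 ± 0.27 SE, adjusted p = 5.93e-14 and 3.98e-16). The tetraspanin Cd63 (6.31), the galectin Lgals3 (6.25) and the lysosomal marker Cd68 (4.70) rose with them. Spp1, osteopontin, which bile duct cells also make, was at 2757, 3433, 3359 and 3146 TPM in F/F and 55.4, 45.7, 47.2 and 46.4 TPM in W/W (5.997 ± 0.29 SE, adjusted p = 1.34e-16). The 1 member that did not pass in both scalings was the lysosomal acid lipase Lipa, 0.72 as deposited and -0.14 rescaled.

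Genes of monocytes and inflammation were higher in 17 of 18 cases (median 1.93 rescaled). Ccl2, the chemokine that draws monocytes, was at 53.2, 61.6, 58.1 and 70.1 TPM in F/F and 0.453, 1.16, 0.708 and 1.99 TPM in W/W, with no overlap (4.94 ± 0.56 SE, adjusted p = 3.5e-09). Its receptor Ccr2 (2.87), the endotoxin receptor Cd14 (5.65), Cx3cr1 (4.11) and the cytokine Tnf (2.53) rose too. Ccl5 was the exception, since W/W replicate 4 had 9.92 TPM against 8.17, 7.55, 7.25 and 7.76 TPM in F/F (0.43 rescaled, adjusted p = 0.482). Of 12 neutrophil genes 11 were higher. S100a9, a subunit of calprotectin, was at 135, 219, 76.2 and 159 TPM in F/F and 1.58, 2.52, 1.16 and 3.76 TPM in W/W (5.48 ± 0.50 SE, adjusted p = 4.57e-11). S100a8 (5.07) and the granule protein Ngp (4.56) followed it, with F/F replicate 3 lowest of its group in all 3. Ly6g, which is restricted to neutrophils, reached only 1.57, 1.96, 1.69 and 1.10 TPM in F/F and is listed at 0 in 3 of the 4 W/W mice.

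Lymphocyte and antigen-presentation genes differed less. Of 13 lymphocyte genes 5 were higher, among them Cd8a of cytotoxic T cells (1.16 ± 0.22 SE, adjusted p = 1.99e-05) and Jchain of plasma cells (1.64 ± 0.34 SE, adjusted p = 6.02e-05). That count fell to 3 without F/F replicate 2 or 4 or W/W replicate 1, 2 or 3. Cd3e, of all T cells, was too low to be tested, at 0.423 to 0.837 TPM in F/F and 0.152 to 1.13 TPM in W/W. Of 9 genes of dendritic cells and MHC class II, 3 were higher. Cd74, the class II chaperone, was at 1053, 597, 558 and 548 TPM in F/F and 78.1, 84.6, 149 and 323 TPM in W/W, again with replicate 4 highest of the controls (2.30 ± 0.55 SE, adjusted p = 0.000392). H2-Aa overlapped between groups and was 0.94 rescaled (adjusted p = 0.13). The class II count was 6 without W/W replicate 4 and 1 without F/F replicate 1. Of 16 acute phase genes, which hepatocytes secrete in inflammation, 9 were higher and none lower. Lcn2, lipocalin 2, an iron-chelator carrier of hepatocytes and neutrophils, was at 1745, 2252, 2238 and 2005 TPM in F/F and 7.83, 4.82, 6.60 and 10.49 TPM in W/W (7.97 ± 1.05 SE, adjusted p = 5.98e-08). Orm2 (4.79, adjusted p = 0.000166) and Saa3 (3.12, adjusted p = 0.00132) were higher as well.

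Matrix genes were higher nearly throughout, with 25 of 26 higher (median 3.41 as deposited, 2.65 rescaled). Col1a1, the main chain of scar collagen (ENSMUSG00000001506, chr11:94936224-94953042, GRCm38), was at 255, 299, 261 and 261 TPM in F/F and 2.40, 2.76, 1.96 and 8.44 TPM in W/W. Timp1, which blocks matrix breakdown, was at 65.3, 75.5, 78.6 and 86.3 TPM in F/F, and in W/W it is listed at 0 in replicates 1 and 3 and at 0.342 and 0.443 TPM in the others. W/W replicate 4 was again the highest control, at a small part of the lowest F/F value (5.95 ± 0.39 and 6.03 ± 0.36 SE, adjusted p = 5.67e-14 and 9.36e-15). Col1a2 (5.19), Col3a1 (4.96), and the proteases Mmp2 (4.39) and Mmp7 (6.44) were higher. Fn1, fibronectin, which hepatocytes also secrete into plasma, was 0.26 as deposited and -0.61 rescaled. Of 14 genes of stellate cells, which turn into scar-forming myofibroblasts, 11 were higher. Lum, a collagen-binding proteoglycan, was at 168, 217, 184 and 259 TPM in F/F and 4.72, 5.85, 6.02 and 7.34 TPM in W/W (4.89 ± 0.24 SE, adjusted p = 2.43e-16), and the filament gene Des was higher by 1.88. Acta2, the myofibroblast actin, was at 4.72, 16.4, 19.7 and 12.1 TPM in F/F and 2.20, 4.04, 2.15 and 6.67 TPM in W/W, with overlapping groups (1.53 ± 0.37 SE, adjusted p = 0.000397). Lrat, which stores vitamin A in quiescent stellate cells, was 0.39 as deposited and -0.35 rescaled, and Reln was 1.03 and 0.36.

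Bile duct genes were higher, 11 of 12 (median 2.27 rescaled). Krt19, a keratin of cholangiocytes, was at 33.1, 32.1, 44.0 and 31.6 TPM in F/F and 1.33, 1.58, 1.30 and 1.80 TPM in W/W. Epcam, an adhesion molecule of the same cells and of progenitors, was at 63.8, 51.1, 63.3 and 57.0 TPM in F/F and 2.12, 2.98, 2.12 and 2.02 TPM in W/W. Both groups were tight and far apart (3.84 ± 0.22 and 4.18 ± 0.30 SE, adjusted p = 3.15e-15 and 3.05e-13), and the duct factor Sox9 was higher by 3.11. Onecut1, a factor of both duct and hepatocyte with 52.3% of its sequence shared with other genes, was -0.97 (adjusted p = 0.0864). Liver endothelium was mixed, with 5 of 16 genes higher and 3 lower. Cd34 of capillary endothelium (2.42) and the scavenger receptor Stab1 (2.06) were higher and the sinusoidal lectin Clec4g lower (-0.46, adjusted p = 0.00746), while the sinusoidal receptor Stab2 was 0.26 as deposited and -0.53 rescaled.

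All 20 cell cycle genes were higher (median 1.98 rescaled). Mki67, present only in dividing cells, was at 7.15, 10.1, 10.6 and 6.87 TPM in F/F and 0.113, 0.201, 0.140 and 0.225 TPM in W/W (3.03 ± 0.25 SE, adjusted p = 4.65e-12). The mitotic cyclin Ccnb2 (3.72) and the growth-phase cyclin Ccnd1 (3.18) were higher, and so was the inhibitor Cdkn1a, p21 (3.30). Which cells carried these transcripts was not measured. Of 8 genes of fetal liver and imprinted growth tested, 7 were higher. H19, an imprinted RNA of fetal liver, was at 233, 267, 197 and 224 TPM in F/F and 1.00, 1.19, 0.170 and 0.414 TPM in W/W (7.13 ± 0.41 SE, adjusted p = 4.29e-15). Cd24a, a surface protein of progenitors and duct cells, was higher by 4.56, the imprinted RNA Meg3 by 3.77 and the fetal plasma protein Afp by 1.15.

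Stress genes divided by pathway. Of 13 targets of Nrf2, the factor that answers oxidants, 9 were higher and none lower. Cbr3, a carbonyl reductase, was at 56.1, 96.7, 82.4 and 78.4 TPM in F/F and 1.499, 0.865, 1.29 and 1.68 TPM in W/W (5.08 ± 0.46 SE, adjusted p = 3.15e-11). The glutathione peroxidase Gpx2 (4.15) and the quinone reductase Nqo1 (2.44) were higher, while Gclm of glutathione synthesis was 0.50 as deposited and -0.36 rescaled. Of 16 genes of the unfolded protein and integrated stress responses, 5 were higher and 2 lower. The stress factors Atf3 (4.81 ± 0.37 SE, adjusted p = 1.63e-12) and Ddit3 (2.01 ± 0.23 SE, adjusted p = 5.56e-09) were higher, Chac1, which breaks down glutathione, was lower (-1.13, adjusted p = 0.00273), and the chaperone Hspa5 was 0.60 as deposited and -0.26 rescaled. Of 16 housekeeping genes 4 were higher and 1 lower. Actb was higher by 1.66, and Gapdh was 0.27 as deposited and -0.60 rescaled.

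Several of the largest differences lay outside these lists. Ly6d, a small surface protein, was at 576, 1385, 1071 and 944 TPM in F/F and 2.91, 5.85, 4.74 and 3.17 TPM in W/W. Ubd, a ubiquitin-like modifier induced by cytokines, was at 679, 774, 685 and 773 TPM in F/F and 4.10, 2.83, 3.68 and 10.3 TPM in W/W. Cpe, a carboxypeptidase that processes hormones, was at 190.1, 199.7, 182 and 196 TPM in F/F and 0.633, 0.621, 0.888 and 0.828 TPM in W/W. In all 3 every F/F mouse stood far above every control (7.56 ± 0.51, 7.002 ± 0.63 and 6.79 ± 0.37 SE, all with adjusted p of 3.12e-11 or less). The tetraspanin Tspan8 (5.83), the glutathione transferase Gstm3 (6.31, 28.8% of its sequence shared) and the pseudogene Gm11843 (6.89, 26.3% shared) were also among the 15 highest. Among the 15 lowest, Sult2a8, a bile acid sulfotransferase, was at 3.88, 3.51, 3.33 and 5.39 TPM in F/F and 600.2, 573, 493 and 651 TPM in W/W (-6.86 ± 0.30 SE, adjusted p = 1.99e-17). Cfd, the complement protease adipsin, was at 0.370, 0.873, 6.80 and 1.01 TPM in F/F and 369, 303, 390.0 and 107 TPM in W/W (-6.70 ± 0.57 SE, adjusted p = 9.14e-12). Of the markers of fat cells, which also make Cfd, Adipoq reached at most 0.248 TPM in F/F, in replicate 3, and 0.0733 TPM in W/W. Retn reached at most 0.361 TPM in F/F and 0.131 TPM in W/W, and Lep is listed at 0 in all 8 mice. Which cells made Cfd was not tested.

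The F/F minus W/W difference on vehicle was next set against the same difference on chow. The difference was larger in the higher direction on vehicle for 2410 genes (14.5%) and in the lower direction for 749 (4.50%), in both scalings. Diet, vehicle gavage and cohort cannot be told apart here, since no gavage is given for the chow mice. Several hepatocyte genes that were lower in F/F on the MASH diet stood near level on chow. Abcg5 was -2.92 on vehicle and 0.04 on chow, a difference of -2.96 ± 0.33 (SE, adjusted p = 1.48e-07), with means of 88.4 TPM in F/F and 81.5 TPM in W/W on chow. Cyp8b1 was -3.92 and 0.48 (difference -4.40 ± 0.44 SE, adjusted p = 2.1e-08). Cyp2e1 was -2.73 and -0.09 (difference -2.64 ± 0.35 SE, adjusted p = 1.5e-06). Of the P450 list 11 of 16 genes differed further downward on vehicle and none upward. Scd1 was low in F/F under both diets, at -5.73 on chow, and lower still on vehicle (difference -3.36 ± 0.42 SE, adjusted p = 6.28e-07). Among the genes that differed most in the higher direction was Fabp5, a fatty acid carrier of macrophages and other cells. It was lower in F/F on chow (-1.31) and higher on vehicle (3.38), a difference of 4.70 ± 0.51 (SE, adjusted p = 1.08e-07). On chow itself 2644 genes (15.9%) were higher in F/F in both scalings, among them 25 of 26 matrix genes, 11 of 17 genes of lipid-associated macrophages and 19 of 20 cell cycle genes. Col1a1 was 3.45 on chow (difference 2.5 ± 0.56 SE, adjusted p = 0.000671), and Trem2 was 2.58 (difference 2.69 ± 0.38 SE, adjusted p = 3.23e-06). By list, 20 of 26 matrix genes, 15 of 17 genes of lipid-associated macrophages and 10 of 12 neutrophil genes differed further upward. Meg3 went the other way, at 4.64 on chow and 3.77 on vehicle (difference -0.86 ± 0.29 SE, adjusted p = 0.0156), and that call was lost without F/F vehicle replicate 4 (adjusted p = 0.0517).

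**Figure D4:**
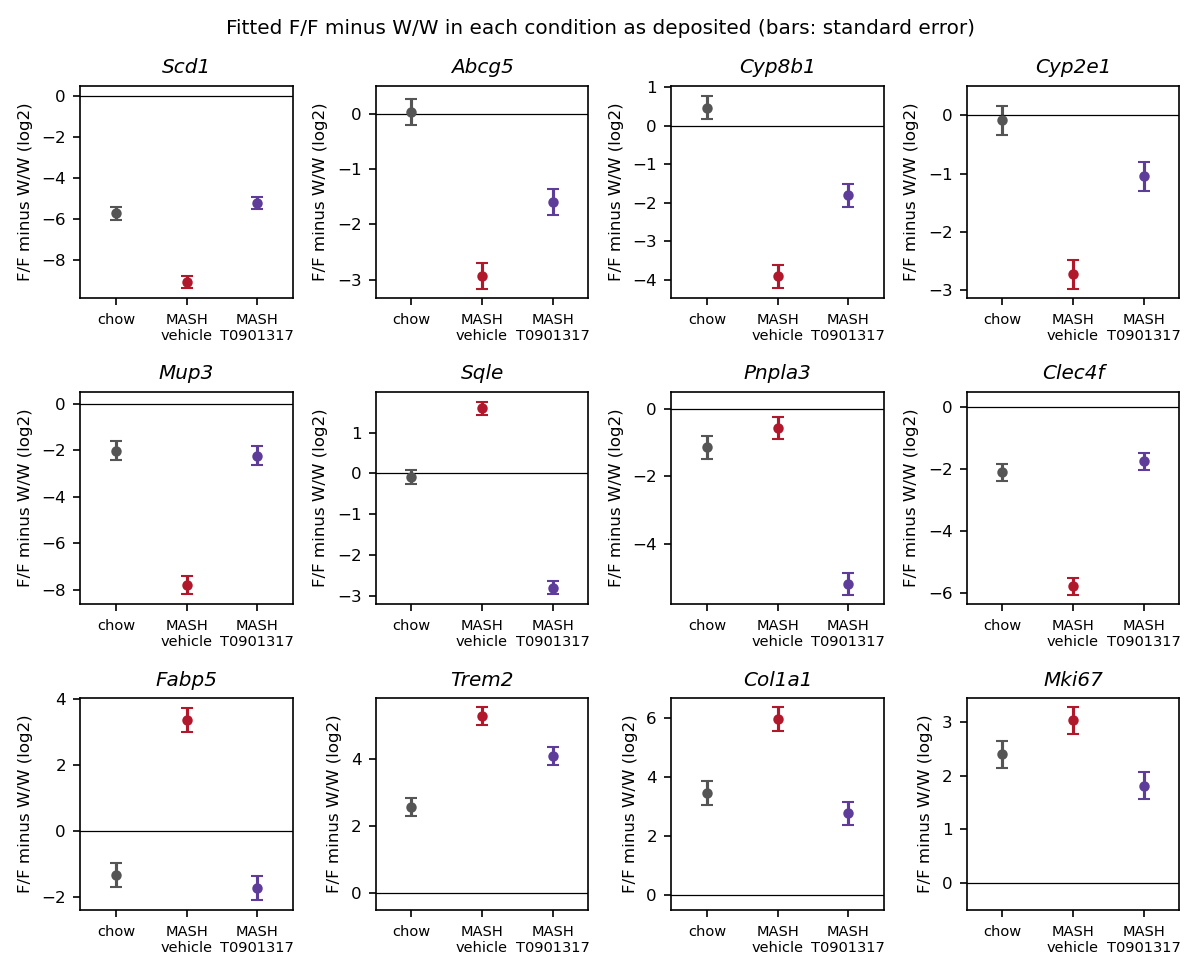
Fitted F/F minus W/W difference (log2, as deposited, with its standard error) of 12 genes under 3 conditions, left to right: chow, MASH diet plus vehicle, MASH diet plus T0901317. Abcg5, Cyp8b1 and Cyp2e1 are near 0 on chow and low on vehicle, Fabp5 changes sign, and Sqle and Pnpla3 are lowest with T0901317.

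The same contrast was set against T0901317, to ask how far the agonist moves the genotype difference. The F/F minus W/W difference was higher on vehicle than with T0901317 for 1670 genes (10.0%) and lower for 544 (3.27%), in both scalings. In sterol synthesis and uptake, 17 of 24 genes were higher and 1 lower by this measure. Sqle was 1.59 on vehicle and -2.80 with T0901317 (difference 4.40 ± 0.24 SE, adjusted p = 7.72e-14), where it averaged 3.69 TPM in F/F and 31.2 TPM in W/W. Pnpla3, the lipid droplet enzyme tied to human fatty liver, was -0.58 on vehicle and -5.20 with T0901317 (difference 4.62 ± 0.47 SE, adjusted p = 4.1e-08). Of 10 Kupffer cell genes, 5 had a lower F/F minus W/W difference on vehicle than with T0901317 and none a higher one. Cd5l was -4.99 on vehicle and -0.19 with T0901317 (difference -4.80 ± 0.54 SE, adjusted p = 2.38e-07), at 117 TPM in F/F and 137 TPM in W/W. Clec4f was -5.76 and -1.73 (difference -4.03 ± 0.39 SE, adjusted p = 1.47e-08), and Vsig4 was -3.59 and -0.52 (difference -3.07 ± 0.44 SE, adjusted p = 8.99e-06). The F/F minus W/W difference was higher on vehicle for 20 of 26 matrix genes and lower for 13 of 16 P450 genes.

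Heterozygous W/F mice on the same diet and vehicle show what the second mutant copy adds. F/F was higher than W/F for 955 genes (5.74%) and lower for 367 (2.21%), in both scalings. The count of higher genes was 623 without W/F replicate 3. W/F and F/F are set against the same W/W mice in the plot of values by mouse. Of 10 Kupffer cell genes 5 were lower in F/F than in W/F and none higher. Clec4f was at 64.6, 25.0, 34.9 and 55.4 TPM in W/F, Vsig4 at 39.8, 26.2, 30.5 and 39.3 TPM and Cd5l at 223, 235, 285 and 308 TPM. As deposited, the W/F values of Vsig4 and Cd5l lay above those of W/W in each mouse, and those of Clec4f lay below. Rescaling divides W/F values by 1.15 to 1.33 and W/W values by 0.693 to 0.852. After it the Vsig4 values of W/F and W/W overlap, while those of Cd5l do not. F/F was near 0 for each gene. In both scalings 1 of 10 Kupffer cell genes was higher and 3 were lower in W/F than in W/W. The F/F minus W/F differences of Clec4f, Vsig4 and Cd5l were -5.00 ± 0.27, -4.05 ± 0.31 and -6.68 ± 0.38 (SE, all with adjusted p of 1.26e-10 or less). Timd4 and Cd163 were, like Clec4f, below the W/W values in each W/F mouse. They stood at 0.949, 0, 0.642 and 1.56 TPM and 0.378, 0.151, 0.106 and 0.451 TPM in W/F. Scd1 was intermediate, at 322, 616, 612 and 504 TPM in W/F (-5.15 ± 0.30 SE, adjusted p = 9.79e-14), as was Srebf1 at 80.6, 58.5, 49.9 and 58.0 TPM (-1.32 ± 0.22 SE, adjusted p = 7.76e-05). Among the higher genes, Mmp7 was at 18.4, 16.7, 16.3 and 12.4 TPM in W/F (3.06 ± 0.35 SE, adjusted p = 3.55e-07), Meg3 at 2.35, 0.702, 1.64 and 1.18 TPM (2.92 ± 0.20 SE, adjusted p = 1.43e-11) and Krt19 at 16.4, 14.0, 8.27 and 9.52 TPM (1.51 ± 0.22 SE, adjusted p = 1.7e-05). By list, 10 of 12 bile duct genes, 7 of 12 neutrophil genes and 11 of 26 matrix genes were higher in F/F than in W/F. Of the genes of lipid-associated macrophages 1 of 17 was higher and none lower. Gpnmb was at 278, 479, 597 and 385 TPM in W/F (0.30 ± 0.53 SE, adjusted p = 0.73). Lrat was highest in W/F, at 16.7, 17.6, 15.3 and 16.1 TPM, and lower in F/F (-1.10 ± 0.15 SE, adjusted p = 4.13e-06).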

How the data were processed

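Liver polyA RNA-seq of 36 male mice in 9 groups of 4 was used, of which 8 mice are compared here. The authors deposited TPM values per gene, which correct for gene length and library total. Per the submitters' processing notes, Trimmomatic 0.36, STAR 2.5.2b, featureCounts and Subread 1.5.2 were used with GRCm38 (mm10). The annotation release and strand setting are not given in the sources used here, so that overlapping and antisense genes are uncertain.

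From these values, log2(TPM + 1) went into limma 3.58.1 (R 4.3.3; lmFit, contrasts, and eBayes with a trend) over all 36 libraries and 9 group means. Of 49315 genes, 16638 reached 1 TPM in 4 or more libraries and were tested. P-values were adjusted by Benjamini-Hochberg, with a threshold of 0.05. The same fit was run after dividing each library by its median ratio to the geometric mean over 14786 genes, and a call needs the same direction in both. These scale factors were 1.43 to 1.48 in F/F and 0.693 to 0.852 in W/W. The vehicle contrast was also tested against the chow and T0901317 contrasts and F/F against W/F. Standard errors and p-values rest on 1 spread per gene between mice of a group, shared by all 9 groups and adjusted towards the trend. They can therefore differ from the spread of the 8 mice whose values are printed.

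Depth was estimated by finding the total at which genes of low TPM, multiplied by their GENCODE M21 exon length, came to whole reads within 0.1. In the libraries compared 94.1% to 95.4% of such values did. As that rests on lengths taken from a matched annotation (48970 of 49315 genes), no count model was fitted. Shared sequence is the share of a gene's 50-base stretches found in other genes. Promoters came from RefSeq. The fit was tested on simulated data.

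The members and gene lists were chosen with earlier results of these data known. Genes named are the 15 with the largest and 15 with the smallest fold change among those called in both scalings with at least 5 TPM and no overlap between groups, the receptors and main LXR targets, up to 4 called members of each list in each direction with the exceptions and members not called, and the 5 largest differences between contrasts in each direction. The text gives a selection of these. Some genes are counted in the lists but not reported here by name. Alternatives tried were the pseudocount, the filter, the samples in the fit, array quality weights, a replicate block and leaving out each mouse.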

Additional observations from a re-analysis of the deposited data

Results flagged for a closer look

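Within groups of 4 mice, a value was marked when its gap to the nearest other mouse, divided by the group's range, passed Dixon's 95% critical value. Of 334 groups examined 31 were marked, and chance marks about 1 in 20. In W/W replicate 4 the high values were 3.05 TPM for Gpnmb, 27.8 for Cd63, 14.1 for Cd68, 9.92 for Ccl5, 2.97 for S100a8, 4.33 for Jchain, 8.44 for Col1a1, 1.60 for Ccnb2, 10.3 for Ubd and 17.0 for the small nuclear RNA Gm22935, and 272 TPM for Mlxipl also stood apart. In F/F replicate 3 the values were 234 TPM for Cd68, 44.0 for Krt19, 6.80 for Cfd, 39.6 for Acta1 and 9.47 for the muscle creatine kinase Ckm. F/F replicate 1 stood apart at 17.3 TPM for Scd2, 15.9 for Ppara, 0.661 for Hsd3b5, 1053 for Cd74 and 324 for Gm11843. F/F replicate 2 did so at 0.423 TPM for Cd3e, 299 for Col1a1 and 8.65 for Onecut1. W/W replicate 1 did so at 55.4 TPM for Spp1, 29.0 for Pnlip and 0.593 for Guca2b, and is listed at 0 for Cbx3-ps8. W/W replicate 2 stood apart at 2.98 TPM for Epcam, and W/W replicate 3 at 0.107 TPM for Ly6g and 624 TPM for Gapdh.

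The genotype difference on vehicle was set apart from that on chow, by limma's test of the difference itself, most in the higher direction for Fabp5 (4.70), Gstm3 (4.29), the chitinase-like Chil3 (4.03), Ngp (3.75) and Guca2b (3.65). In the lower direction it was Cfd (-6.32), Mup3 (-5.79), Sult2a8 (-5.67), Gm21320 (-5.45, with 100% of its sequence shared with other genes) and Cyp2c54 (-5.32). Against T0901317, the highest were Gm22935 (5.64), Ly6d (5.44), Fabp5 (5.11), Pnpla3 (4.62) and the pentose phosphate enzyme gene G6pdx (4.42). The lowest were Mup3 (-5.57), Serpina1e (-5.37), the methyltransferase Inmt (-5.00), Cd5l (-4.80) and Serpina4-ps1 (-4.75). All are log2 differences as deposited, of 4 mice per group.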

How the results depend on the processing

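Of 155 genes, 131 kept their direction and side of the threshold under every one of the alternatives run, as did 47 of 48 differences. Many of these were named because they passed in both scalings, so their stability under rescaling was set by that choice. These counts do not describe genes at large, of which 1643 passed in opposite directions as deposited and rescaled. Rescaling reversed the sign of Nr1h3 (-0.80), Rxra (-0.68), Abca1 (-0.54), Dgat1 (-0.25), Hmgcs1 (-0.60), Cpt1a (-0.54), Plin2 (-0.18), Cyp3a11 (-0.15), Slc40a1 (-0.49), Lipa (-0.14), Lrat (-0.35), Fn1 (-0.61), Stab2 (-0.53), Hspa5 (-0.26), Gclm (-0.36) and Gapdh (-0.60). Nr1h3 also reversed with array quality weights (-0.026), and ranged from -0.027 without F/F replicate 1 to 0.118 without F/F replicate 4 (-0.019 without W/W replicate 1). The cause was not tested. Rescaling gave 4460 genes against chow (54.1% higher, against 90.1% as deposited), 2900 against T0901317 (57.6% and 89.2%) and 1762 against W/F (54.2% and 89.2%), where 7654, 5065 and 3552 were called as deposited. For the vehicle comparison the higher share was 90.7% as deposited and 52.5% rescaled. With a filter of 5 TPM, which leaves 11103 genes to test, 3255 were higher in both scalings against W/W and 532 against W/F. Against W/F, the higher count was 533 with a pseudocount of 0.1, 1713 with array quality weights (576 lower), and 623 to 958 when each mouse was left out. The Meg3 difference from chow missed the threshold with a pseudocount of 0.1 (-0.64, adjusted p = 0.204) and without F/F replicate 4 (-0.67, adjusted p = 0.0517).

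F/F and W/W mice of the same number were treated as unpaired, since the labels do not say that the numbers mark a litter or day. Their deviations correlated at 0.149, 0.008, -0.020 and -0.012, which cannot exclude a shared litter or day. The replicate block gave 12770 genes against W/W (5178 higher and 1203 lower in both scalings), 7770 against chow, 5227 against T0901317 and 3562 against W/F.

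TPM fixes the library total, so absolute amounts of RNA per liver are not measured, and values under about 1 TPM rest on few reads.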

Other observations

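Mmp7 and the pseudogene Cbx3-ps8 lie near each other on the plus strand of chromosome 9 (chr9:7692090-7699585 and chr9:7723147-7723694, GRCm38), and both were higher in F/F. Mmp7 was at 160.0, 142, 106 and 157 TPM in F/F and 1.06, 0.284, 0.566 and 0.644 TPM in W/W. Cbx3-ps8, with 34.9% of its sequence shared with other genes, was at 44.6, 37.6, 31.2 and 52.5 TPM in F/F and 0, 0.185, 0.184 and 0.179 TPM in W/W. The pair was chosen after its values were seen.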
